A study of Mus musculus with 3 samples.

Results

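The endothelial marker genes described here are 10 genes that heart endothelium is known for: Pecam1, Cdh5, Kdr, Flt1, Tek, Tie1, Vwf, Eng, Egfl7 and Esam. Their members were taken as every gene probe that the arrays, or the RefSeq accession of the probe, assign to one of these names, which gave 18 probes of 41174. Esam was the only gene found through its accession, since the arrays call it Esam1. RNA from 2-month-old C57/BL6 mouse hearts was compared on 3 two-colour Agilent arrays (replicates 1 to 3), each setting a pool of 2 Lrrc10-/- hearts, labelled Cy5, against a pool of 2 Lrrc10+/+ (WT) hearts, labelled Cy3. Lrrc10 encodes a leucine-rich repeat protein of cardiomyocytes, and its deletion is the only allele that the labels name. The labels call the WT channel a reference pool, and if 1 such pool served every array the spread between WT hearts is not in any value below. The arrays lay on 1 slide and were scanned together, and no array had the dyes swapped. In pooled whole-heart RNA, fewer endothelial cells and less RNA per endothelial cell cannot be told apart.

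The Lrrc10 probe did not follow the dye labels. It read 14283, 20828 and 17703 in Cy5, the channel labelled Lrrc10-/-, and 476.5, 442.6 and 352.3 in Cy3, the channel labelled WT (processed signal, replicates 1, 2 and 3). The mean log2 ratio of Cy5 over Cy3 was 5.37 ± 0.41 (SD, n = 3, limma adjusted p = 0.000251). The study describes the natriuretic peptide gene Nppa as higher in Lrrc10-/- hearts, whereas on these arrays Nppa was brighter in Cy3 on each of the 3, so the direction given by the labels opposes that of the study. For this reason every ratio below is given by channel, Cy5 over Cy3, and none is assigned to a genotype. Log2 ratios over all tested probes correlated weakly between arrays, with a Pearson r across probes of 0.10 for replicates 1 and 2, -0.04 for 1 and 3 and -0.18 for 2 and 3.

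Endothelial cells line vessels and the heart chambers, and in the heart muscle most of them form capillaries that run beside the cardiomyocytes. Kdr and Flt1 are receptors for vascular endothelial growth factor, the main signal for vessel growth, and Flt1 also acts as a decoy for it. Tek is the receptor of the angiopoietins, which act on vessel quiescence, and Tie1 is its partner receptor. Cdh5, Pecam1 and Esam hold neighbouring endothelial cells together at their junctions. Eng is a co-receptor for ligands of the BMP and TGF-beta family, Vwf is the clotting protein that endothelial cells store and release, and Egfl7 is a secreted protein of the vessel wall.

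Stretches of 4 member probes are shown because results below turn on these probes. Only the first 30 of the 60 bases of each are given, 5′ to 3′ as deposited, with no bases marked. The first 2 are the probes of Cdh5 and Egfl7, which ran opposite ways on replicate 2, and the other 2 are probes assigned to Tek that disagreed with each other.
Cdh5 probe: acttattataagactctagttctcacagac
Egfl7 probe: aggctggatagagcagtcatccctagatcc
Tek probe, RefSeq transcript: ctctaatgtgactgtatatactgctcggag
Tek probe, cDNA clone: agttctcatagaacttagcagtgttacccc
Egfl7 is also the host gene of the endothelial microRNA miR-126, and the mature mmu-miR-126a-3p lies inside the span of Egfl7 in RefSeq (GRCm38.p6). It is shown 5′ to 3′ with the seed, bases 2 to 8, in capitals, and these arrays were not read for microRNAs.
mmu-miR-126a-3p: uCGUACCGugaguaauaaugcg

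All 10 genes were measured well: the brightest probe of each stood well above background on every array, in Cy3 and in Cy5, and none was saturated. That probe, chosen by mean signal over both channels, stands for its gene in what follows. Of the 18 probes, 14 passed the signal minimum of 20 used for testing, and these had mean signals of at least 328. The other 4 read cDNA clones assigned to Flt1, Kdr, Pecam1 and Vwf and had mean signals of 4.8 to 16.3. Those of Flt1, Kdr and Vwf were not well above background in any channel of any array, and that of Pecam1 was so on 1 array only. All 10 markers of endothelium were thus detected in the labelled tissue.

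No endothelial marker gene was called by limma after adjustment over all 29576 tested probes. Adjusted p was 1.0 for each of the 10. Over the 20603 tested genes, limma called 0.00971% as brighter in Cy5 and 0% as brighter in Cy3. At an unadjusted limma p under 0.05 stood 1 of the 10 genes, Eng, beside 3.32% of all tested genes. By the methods' t-test, none of the 10 was under 0.05 without adjustment, and the lowest adjusted p of any member under any alternative setting tried was 0.0948. A selection by consistency asked of every array a ratio of 1.2 or more in one direction, the fold limit of the study, and a deposited p under 0.05, which the study's methods do not ask of each array. It took 0 of the 10 genes, beside 0.442% of tested genes in Cy5 and 0.612% in Cy3.

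The ratios shared a pattern over the arrays rather than a direction. The median log2 ratio of the 10 genes was 0.14 on replicate 1, -0.57 on replicate 2 and -0.30 on replicate 3, while the medians of all tested genes were 0.00, 0.04 and -0.06. On replicate 2, 9 of the 10 were brighter in Cy3, beside 47.3% of tested genes, with Egfl7 the exception. On replicate 3 again 9 of the 10 were, beside 56.1%, with Kdr the exception. On replicate 1 only 4 were, beside 49.7%. The ratio was lower on replicate 2 than on replicate 1 for 9 genes, compared with 48.7% of all tested genes, and replicate 2 was the lowest array for 8 genes, compared with 35.1%. Below 0 on all 3 arrays were 2 genes, Tie1 and Eng, beside 12.2% of tested genes, and above 0 on all 3 were none, beside 9.47%. Averaged over arrays, all 10 gene means lay below 0, from -0.46 to -0.01, beside 51.4% of tested genes, and their median was -0.24. That median was -0.085 without replicate 2 and -0.40 without replicate 1, and with replicate 1 left out 8 genes lay below 0 on both other arrays, beside 24.2% of all tested genes.

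**Figure D1:**
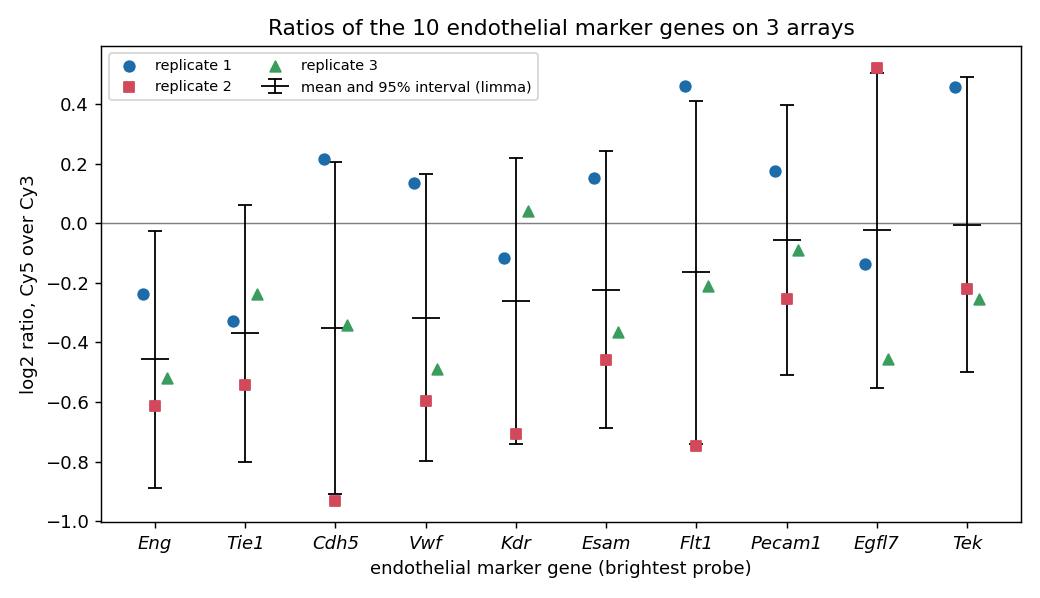
Log2 ratios of Cy5 over Cy3 (y axis) of the 10 endothelial marker genes (x axis, ordered by mean), with 1 point for each of replicates 1 to 3 and bars for the limma mean and its 95% interval. Replicate 2 lies lowest for 8 genes and highest for Egfl7 alone, and the interval leaves out 0 for Eng alone, before any adjustment.

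The sign of that median depended on how the background and the dyes were treated. It was -0.05 after normexp background correction with loess, 0.07 with uncorrected mean signals centred on the array median, and 0.31 with normexp and median centring. The medians of all tested genes in these settings were -0.002, 0.065 and 0.18. Under normexp and median centring 7 of the 10 genes had a mean above 0, and Eng, Tie1 and Vwf stayed below it. Most tested genes also had a mean above 0 there, since their median was 0.18. The order of the arrays was less dependent on this choice. The ratio on replicate 1 exceeded that on replicate 2 for 9 of 10 genes under each of the 4 normalizations, by a median of 0.60, 0.60, 1.02 and 0.61 for the deposited ratios, normexp with loess, mean signals and normexp with median centring, in that order. The same difference over all tested genes had medians of -0.02, 0.00, 0.06 and -0.03. It was above 0 for 48.7%, 49.8%, 55.7% and 45.9% of them.

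**Figure D2:**
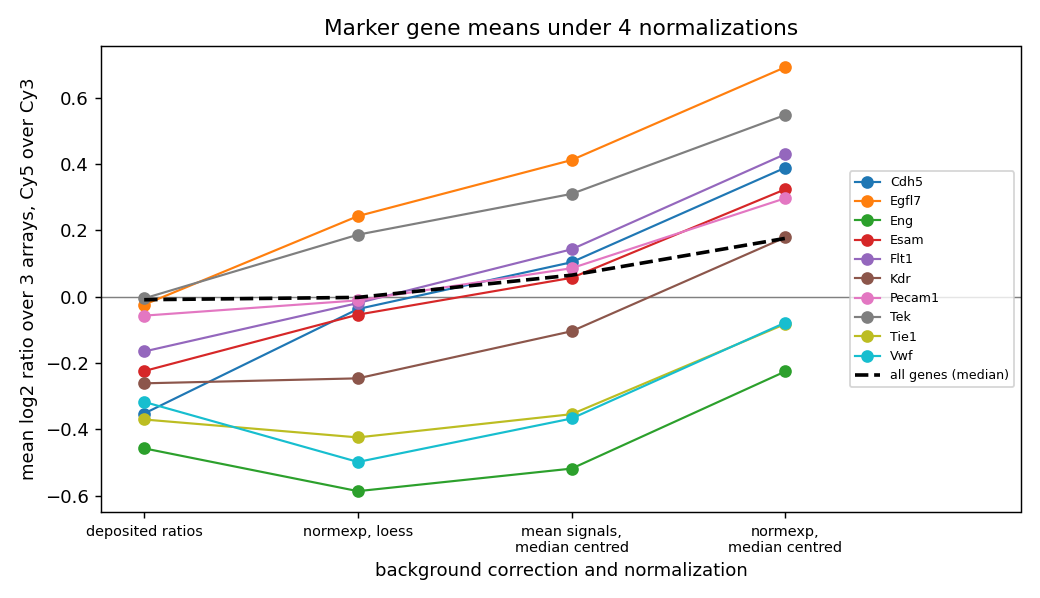
Mean log2 ratio over the 3 arrays (y axis) of each endothelial marker gene under 4 treatments of background and dye (x axis), with the median of all tested genes as a dashed line. All 10 means are below 0 with the deposited ratios and 3 of them with normexp and median centring, while Eng is the lowest gene under each.

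Of the growth factor receptors, Kdr had a processed signal of 7601, 14286 and 5973 in Cy3 and of 7014, 8753 and 6144 in Cy5, in the order of the replicates as for all values below. Processed signals are not scaled between arrays, and replicate 2 was the brightest array. Over all gene spots their medians were 144.3, 171.8 and 125.6 in Cy3 and 142.6, 173.7 and 124.8 in Cy5. For Kdr the channels overlapped, and the Cy3 signal of replicate 2 stood above all other values. It was also the highest Kdr value after loess and between-array quantile normalization, at 12.04 on the log2 scale. The log2 ratios were -0.12, -0.71 and 0.04, with a mean of -0.26 (95% interval -0.74 to 0.22, SD 0.39, n = 3, limma adjusted p = 1.0). Without replicate 2 the mean was -0.038, and without replicate 3 it was -0.41. The Kdr probe was printed 10 times on each array, and its spots differed by an SD of 0.05, 0.03 and 0.03 within an array. Flt1 read 15407, 37302 and 14613 in Cy3 and 21206, 22218 and 12637 in Cy5. Its ratios were 0.46, -0.75 and -0.21, on both sides of 0, with a mean of -0.17 (95% interval -0.74 to 0.41). A second Flt1 probe for the same transcript gave 0.61, -0.33 and 0.01, the same order of arrays, and the first probe less the second came to -0.15, -0.42 and -0.22.

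Tie1, the partner of the angiopoietin receptor Tek, was 1 of the 2 genes on one side of 0 throughout. It read 1605, 2858 and 1297 in Cy3 and 1277, 1963 and 1099 in Cy5, with Cy3 the brighter channel on each array. The channel ranges overlapped in these processed signals but were separate after quantile normalization. The log2 signals of Tie1 were then 9.683, 9.980 and 9.511 in Cy3 and 9.266, 9.434 and 9.203 in Cy5. Its ratios were -0.33, -0.54 and -0.24, with a mean of -0.37 ± 0.16 (SD, n = 3, limma adjusted p = 1.0, 95% interval -0.80 to 0.06). Tek read 1717, 3087 and 1555 in Cy3 and 2358, 2651 and 1304 in Cy5. Its ratios were 0.46, -0.22 and -0.25, which cancelled to a mean of -0.01 (95% interval -0.50 to 0.49). The second tested Tek probe, which reads a cDNA clone and had a mean signal of 328.0, ran the other way. It gave -0.12, 0.99 and 0.18, and on replicate 2 the probes differed by -1.21. These are the pair of Tek stretches shown above, and a ratio for Tek therefore depends on the probe: averaging both turned its mean to 0.17.

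Of the junction genes, Cdh5 (VE-cadherin, the adhesion molecule of endothelial adherens junctions) had the largest swing. It read 5765, 13587 and 8492 in Cy3 but 6695, 7129 and 6698 in Cy5. The Cy3 signal of replicate 2 was over all others. After quantile normalization the log2 signals were 11.11, 11.864 and 11.759 in Cy3 and 11.641, 11.223 and 11.758 in Cy5. Replicate 2 was then the highest array in Cy3 and the lowest in Cy5. The SD of these log2 signals over arrays was 0.41 in Cy3 and 0.28 in Cy5. The ratios were 0.22, -0.93 and -0.34, with a mean of -0.35 (95% interval -0.91 to 0.21, SD 0.57, n = 3, limma adjusted p = 1.0). The mean was -0.063 without replicate 2 and -0.64 without replicate 1. The second Cdh5 probe gave 0.40, -1.04 and 0.01, and so had the same lowest array. Esam, an immunoglobulin-type adhesion molecule, read 2172, 4340 and 2378 in Cy3 and 2413, 3155 and 1847 in Cy5. Its ratios of 0.15, -0.46 and -0.36 lay closest of all members to the median of the others, and their mean of -0.22 became -0.11 without replicate 2 and -0.41 without replicate 1. Pecam1, another adhesion molecule of that type, read 1070, 1853 and 691.5 in Cy3 and 1207, 1553 and 650.0 in Cy5. Its ratios were 0.17, -0.26 and -0.09, with a mean of -0.06 (95% interval -0.51 to 0.40) and an SD of 0.07, 0.07 and 0.07 between its 10 spots on each array.

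Of the others, Eng (endoglin) had the lowest mean. It read 2211, 3689 and 2443 in Cy3 and 1877, 2409 and 1705 in Cy5, with Cy3 brighter on each array. The channel ranges overlapped in these processed signals but were separate after quantile normalization. The log2 signals of Eng were then 9.896, 10.153 and 10.196 in Cy3 and 9.503, 9.455 and 9.528 in Cy5. Its ratios were -0.24, -0.61 and -0.52, with a mean of -0.46 ± 0.20 (SD, n = 3), which is 0.73-fold. The 95% interval was -0.89 to -0.03 and the limma adjusted p was 1.0. The place of Eng under an unadjusted p of 0.05 rested on the tool, since it was lost with the methods' t-test. Vwf read 5597, 12371 and 7604 in Cy3 and 6145, 8186 and 5418 in Cy5, with ratios of 0.14, -0.60 and -0.49. Their mean of -0.32 became -0.18 without replicate 2 and -0.54 without replicate 1. A second Vwf probe gave 0.09, -0.55 and -0.45, within 0.05 of the first on every array. This was the closest pair among the 4 genes with 2 tested probes. Egfl7 alone ran against the rest: it read 23123, 20598 and 24643 in Cy3 and 21020, 29583 and 17953 in Cy5, and its ratios were -0.14, 0.52 and -0.46. Its distance from the median of the other 9 genes over the 3 arrays was 1.17, whereas those of the other members ran from 0.18 to 0.50.

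**Figure D3:**
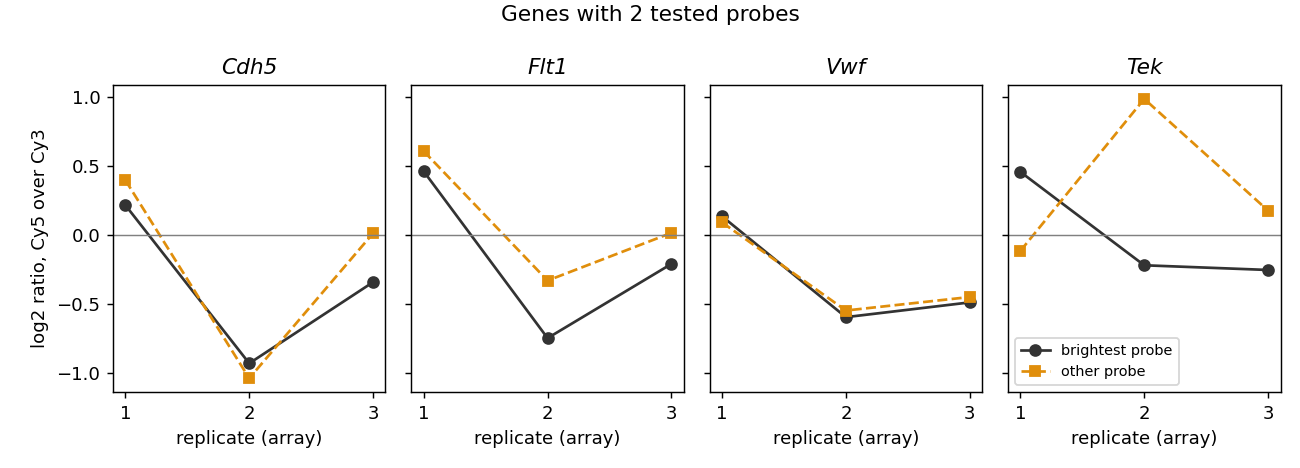
Log2 ratio of Cy5 over Cy3 (y axis) on replicates 1 to 3 (x axis) for the 4 member genes with 2 tested probes, with the brightest probe as a solid line and the other as a dashed line. The Vwf probes coincide within 0.05, the Cdh5 and Flt1 probes share their lowest array, and the Tek probes cross, with the brightest less the other at -1.21 on replicate 2.

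Seen 1 channel at a time, the arrays differed more in Cy3, the channel labelled WT. After loess and between-array quantile normalization, the median SD of the log2 signal over arrays was 0.33 in Cy3 and 0.13 in Cy5 for the 10 genes, and 0.18 and 0.11 for all tested genes. With the deposited processed signals, centred on each array's median, the SDs were 0.39 and 0.13 for the 10 genes and 0.38 and 0.22 for all tested genes, so that in Cy3 the markers then varied about as much as other genes. The SD was larger in Cy3 for 9 of the 10, compared with 73.0% of all tested genes, and Tek was the exception. In Cy3, 8 of the 10 genes were brightest on replicate 2, compared with 32.5% of tested genes. Cy3 deviated from each gene's own mean by a median of -0.15, 0.25 and -0.06 on replicates 1, 2 and 3. In Cy5 the same deviations were 0.09, -0.02 and -0.10. In Cy5, 7 of the 10 genes were brightest on replicate 1, compared with 34.1% of tested genes. Eng and Vwf varied little in Cy5, with SDs of 0.04 and 0.05, against 0.16 and 0.34 in Cy3. Flt1, Tek, Pecam1 and Cdh5 varied more in Cy5 than Eng and Vwf did, with SDs of 0.41, 0.34, 0.32 and 0.28. Their SDs in Cy3 were 0.475, 0.20, 0.32 and 0.41, so that only Tek varied more in Cy5 than in Cy3. For Egfl7 the swing lay in Cy3 as well, with log2 signals of 13.08, 12.47 and 13.26 there and 13.24, 13.21 and 13.09 in Cy5.

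**Figure D4:**
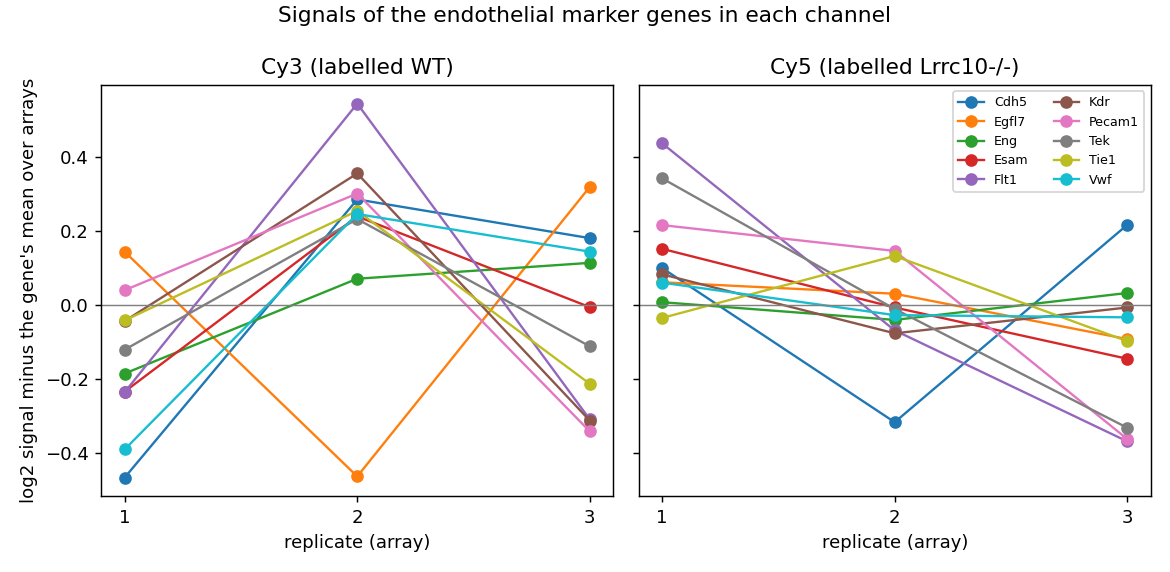
Log2 signal after loess and between-array quantile normalization, less the gene's mean over the arrays (y axis), for the 10 endothelial marker genes on replicates 1 to 3 (x axis), in Cy3 (left) and Cy5 (right). In Cy3, 8 genes peak on replicate 2 and Egfl7 dips there. In Cy5, 7 genes peak on replicate 1 and the median deviations stay between -0.10 and 0.09. Single genes in Cy5 swing more than these medians, with SDs of 0.41 for Flt1, 0.34 for Tek, 0.32 for Pecam1 and 0.28 for Cdh5.

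The member probes ranged in GC content from 35.0% to 55.0%, with a median of 49.1%, and the median over all tested genes was 43.3%. Across the 10 genes the Spearman correlation of GC content with the ratio was -0.64, 0.55 and -0.72 on replicates 1, 2 and 3, and across all tested genes it was -0.06, -0.09 and -0.07. Genes are not independent replicates and share each array, and the part of GC content in the ratios was not tested.

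Promoter sequence was on hand for 6 of the 10 genes, Egfl7, Eng, Tek, Tie1, Kdr and Flt1. Factors of the ETS family, known regulators of endothelial genes, bind sites with the core GGAA, and the longer letters GGAAG were searched on both strands of each window from 250 bases before to 50 after the start. They were found in 6 of the 8 windows of these genes, beside 71.4% of 32851 promoters of the same length, so their presence does not set these genes apart. Tie1 and Eng, the genes below 0 on all 3 arrays, are shown with GGAAG, or CTTCC for the other strand, in capitals. Tie1 held 7 matches and Eng 2, Kdr held 1, Flt1 held 3, Tek none, and the 3 Egfl7 starts held 4, 3 and 0. Sequences are from RefSeq (GRCm38.p6), Tie1 on the minus strand at chr4:118489800-118490099 and Eng on the plus strand at chr2:32646345-32646644.
Tie1 promoter: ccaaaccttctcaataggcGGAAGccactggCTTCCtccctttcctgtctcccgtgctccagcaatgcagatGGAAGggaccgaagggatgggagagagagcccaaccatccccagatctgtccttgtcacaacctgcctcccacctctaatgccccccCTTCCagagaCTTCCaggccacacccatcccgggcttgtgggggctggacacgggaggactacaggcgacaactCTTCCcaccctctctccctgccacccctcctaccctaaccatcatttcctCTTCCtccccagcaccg
Eng promoter: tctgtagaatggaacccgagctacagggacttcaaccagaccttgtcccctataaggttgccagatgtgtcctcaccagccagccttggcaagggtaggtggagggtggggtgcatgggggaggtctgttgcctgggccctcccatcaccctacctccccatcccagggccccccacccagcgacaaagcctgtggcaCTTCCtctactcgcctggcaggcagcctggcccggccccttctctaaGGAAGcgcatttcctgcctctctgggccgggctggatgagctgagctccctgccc

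The pathways around the members were read from 11 lists of 143 gene entries, of which 136 different genes were tested. Limma called 0 of these, and 10, or 7.35%, were at an unadjusted limma p under 0.05. By the selection for consistency 3 were brighter in Cy5 (2.21%) and 2 in Cy3 (1.47%), with the shares of all tested genes given above. Above 0 on all arrays were 17 genes (12.5%) and below it 18 (13.2%). The array order of the members recurred here in part: replicate 1 was highest for 54.4% of these genes and replicate 2 lowest for 45.6%, compared with 32.9% and 35.1% of all tested genes, and replicate 1 gave the highest median in 10 of the 11 lists. The median of the gene means was 0.01.

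Among the 7 tested VEGF ligands and co-receptors, medians were 0.02, -0.12 and -0.12. The largest mean was that of the co-receptor Nrp2, with -0.17, -0.51 and -0.38, and the brightest gene, the ligand Vegfb, gave -0.03, -0.15 and 0.31. The 5 angiopoietin and Tie partners had medians of 0.07, -0.35 and 0.04. Angpt2, the ligand that antagonizes Tek in many settings, gave 0.08, -1.01 and -0.42, and Ptprb, the endothelial phosphatase that acts on Tek, gave 0.52, 0.25 and 0.26. Of the 15 genes of BMP and TGF-beta signalling around Eng, Smad9 was not well above background throughout. This list had medians of 0.08, 0.10 and 0.01 and was the single list highest on replicate 2. Its target gene Id2 gave -1.0, 0.20 and -0.54 and its shared mediator Smad4 gave 0.39, -0.06 and 0.18.

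Among 17 junction and adhesion genes, with medians of 0.15, -0.23 and 0.08, Cldn5 was selected as brighter in Cy3. Ocln and Nectin2 of this list were not well above background throughout. Cldn5 encodes claudin-5, the tight junction protein of endothelium, and its ratios were -0.67, -0.93 and -0.44, with a mean of -0.68 ± 0.24 (SD, n = 3, limma adjusted p = 1.0). Among 23 other pan-endothelial genes, with medians of 0.28, 0.01 and -0.15, Calcrl, the receptor of adrenomedullin, was selected as brighter in Cy5 with 0.42, 0.73 and 1.05. The 13 capillary and lipid transfer genes had medians of 0.38, 0.27 and -0.54. Fabp4 and Lpl were saturated on some array, and the 11 others had medians of 0.375, 0.287 and -0.57. Of these the fatty acid transporter Cd36 gave 0.45, -0.12 and 0.46 and the water channel Aqp1 gave 0.64, 0.12 and -0.46.

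The 14 arterial and Notch genes had medians of 0.10, -0.17 and -0.14 and held a selected gene in each direction. Jag1, a Notch ligand, gave 0.52, 0.46 and 0.43 and was brighter in Cy5, and Unc5b, a netrin receptor of vessels, gave -0.72, -0.51 and -0.67 and was brighter in Cy3. Both had ratios that differed little between arrays, with SDs of 0.05 and 0.11. The 11 venous, endocardial and activation genes had medians of 0.27, -0.36 and -0.25. Selp (P-selectin), stored with Vwf in the same granules, gave 1.60, 0.79 and 0.26, and Ackr3 gave 0.31, -0.37 and -0.25. The 6 lymphatic genes, of which Pdpn was not well above background throughout, had medians of 0.43, -0.18 and 0.29. Lyve1, a hyaluronan receptor also found on some macrophages, gave 1.22, 1.23 and 0.28, and the chemokine Ccl21a gave -0.14, -0.07 and -0.11. The 15 endothelial transcription factors had medians of 0.21, -0.07 and -0.06, with Elk3, an ETS factor, at -0.43, -0.90 and -0.18 and the hypoxia-inducible factor Epas1 at 0.59, -0.80 and 0.26. The 10 coagulation partners of Vwf, of which F8 and Rab27a were not well above background throughout, had medians of 0.29, 0.10 and -0.25. The brightest of them, thrombomodulin (Thbd), gave 0.50, -0.32 and -0.22.

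Of the 130 pathway genes well above background throughout, the 3 with ratios closest to the median profile of the members were Foxo1, Jag2 and Notch4. Foxo1, a factor downstream of Tek, gave 0.07, -0.35 and -0.31 at a Euclidean distance of 0.23 over the 3 arrays. Jag2, a Notch ligand, gave 0.09, -0.72 and -0.13 at 0.23, and Notch4, a Notch receptor of endothelium, gave 0.33, -0.44 and -0.37 at 0.24. Likeness over 3 arrays is a description only.

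**Figure D5:**
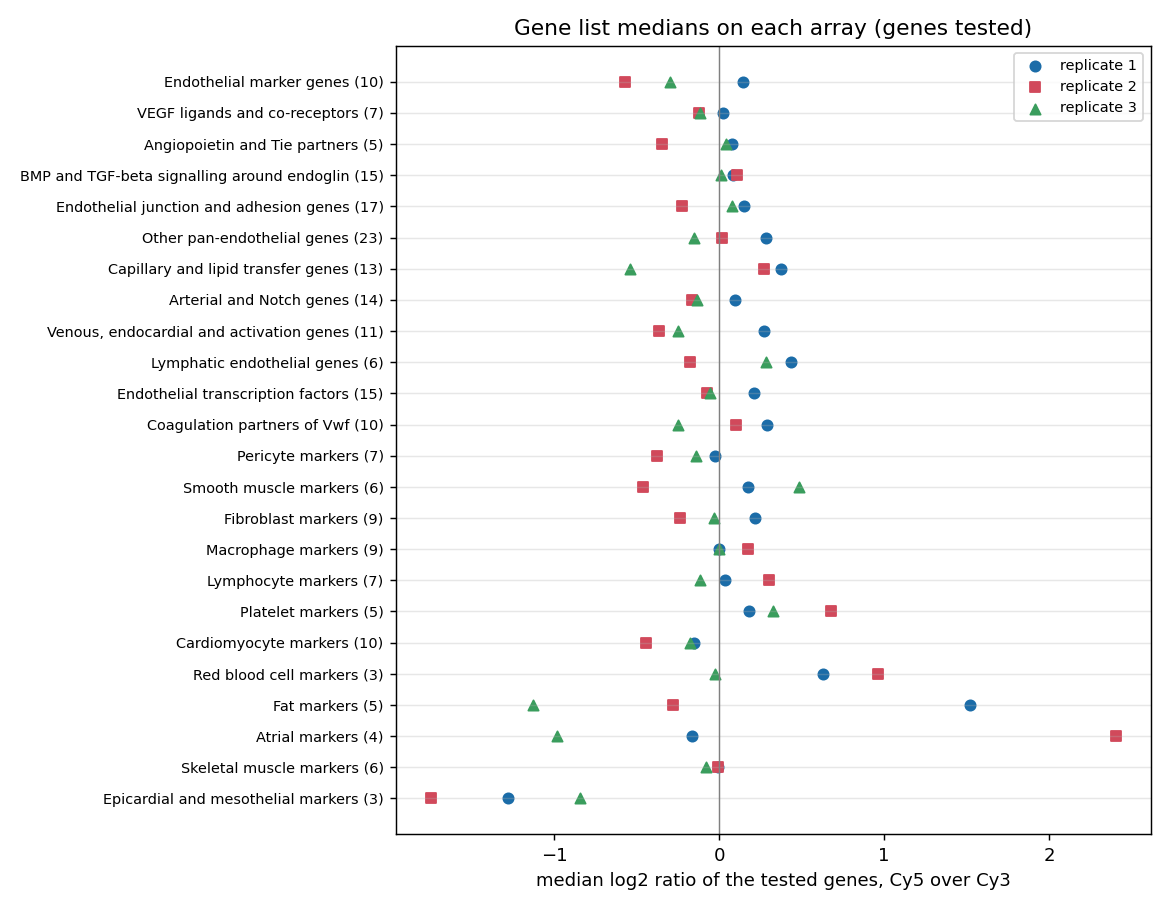
Median log2 ratio of Cy5 over Cy3 (x axis) on replicates 1 to 3 for the endothelial marker genes, 11 lists of related endothelial genes and 12 lists of markers of other cells, with the number of tested genes in parentheses. The endothelial markers read 0.14, -0.57 and -0.30, and replicate 2 is the lowest array for 7 of the 11 endothelial lists and 5 of the 12 others.

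Markers of other cell types moved with the endothelial markers on some arrays. Pericyte markers, which were all 7 tested, had medians of -0.02, -0.38 and -0.14, and their summed signal ran from 47418 to 76623 in Cy3 and from 49695 to 76567 in Cy5. The 9 fibroblast markers had medians of 0.21, -0.24 and -0.03, with sums of 264094 to 411016 in Cy3 and 249621 to 373591 in Cy5. Gsn of these was saturated on some array, and the 8 others had medians of 0.26, -0.14 and -0.02. Their sums were 129150 to 198701 in Cy3 and 129072 to 204480 in Cy5. The 10 cardiomyocyte markers had medians of -0.15, -0.44 and -0.18, with sums of 1144442 to 1846848 in Cy3 and 1075360 to 1422417 in Cy5. Of these 10, 7 were saturated on some array, and they include the selected genes of the list, Tnnt2 and Myl2, both brighter in Cy3. The 3 unsaturated ones had medians of 0.23, -1.08 and 0.31, with sums of 86496 to 236770 in Cy3 and 106532 to 160879 in Cy5. The 6 smooth muscle markers were also lowest on replicate 2, with 0.17, -0.46 and 0.49 and sums of 23958 to 35529 in Cy3 and 20425 to 36935 in Cy5. All markers of these 4 lists stood well above background on every array. The 3 epicardial and mesothelial markers tested had medians of -1.28, -1.75 and -0.84 and low sums of 530 to 1002 in Cy3 and 360 to 531 in Cy5, and Upk3b and Msln were selected as brighter in Cy3, of which Upk3b was not well above background throughout. The part of these cells in the endothelial ratios was not tested.

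In the remaining lists replicate 2 was not the lowest array. Medians on replicates 1, 2 and 3 were 0.00, 0.17 and 0.00 for 9 macrophage markers. Lyz2 of these was saturated on some array, and the 8 others had medians of 0.03, 0.17 and -0.09. Medians were 0.04, 0.30 and -0.12 for 7 lymphocyte markers, of which Cd8a and Cd79a were not well above background throughout. They were 0.18, 0.68 and 0.33 for 5 platelet markers, of which 3 were well above background throughout and Gp1ba and Itga2b were not. Platelets and their precursors also hold Vwf. Medians were 0.63, 0.96 and -0.03 for 3 red blood cell markers, of which Hba-a1 was saturated on some array. The 2 others had medians of 0.54, 0.815 and -0.175. The 5 fat markers had medians of 1.52, -0.28 and -1.13, and Adipoq, Plin1 and Retn of these were not well above background throughout. The 4 atrial markers had medians of -0.16, 2.41 and -0.98, with Nppa at -0.89, -0.61 and -0.82, and the 6 skeletal muscle markers had -0.01, 0.00 and -0.08. Of the skeletal muscle markers, Myh4 was saturated on some array and Myh1 was not well above background throughout. The 5 unsaturated ones had medians of -0.097, 0.091 and -0.253.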

How the data were processed

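RNA from adult hearts was measured on 3 Agilent two-colour arrays. For each array the scanner table made with Feature Extraction 9.1.3.1 was used. Mean signal and background intensities are as the authors' scan gave them, and the processed signal intensities, as deposited by the authors, had local background subtracted and the dyes normalized within the array. The deposited log10 ratio is Cy5 over Cy3 of the processed signals, and the deposited p-value belongs to 1 spot on 1 array. The authors' table of the series holds the same log10 ratios.

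Ratios were put on the log2 scale, outlier spots (4 to 21 per array of 43379 gene spots) were dropped, and repeat spots of a probe were averaged. Probes with a geometric mean processed signal of at least 20 were tested with limma 3.58.1 in R 4.3.3 (intercept, eBayes with intensity trend, two-sided, Benjamini-Hochberg over 29576 probes). The brightest probe stood for a gene. Names came from RefSeq accessions for 24844 probes and otherwise from the arrays. The number of arrays limits the precision, and p-values measure only the spread between these pools. Fits were tested on simulated data.

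Named were all member probes, Lrrc10, genes of the endothelial lists that limma or the selection for consistency took (otherwise the largest mean ratio and the brightest unsaturated gene), the cell type lists, and the 3 genes most like the members. The values of 1 gene that this rule takes are not reported here. Members and lists were chosen with earlier results of these data known. Alternatives were the background correction, the normalization, the signal minimum, saturated probes, the intensity trend, the methods' t-test, the series table, the mean over probes and leaving out each array. Leaving out Esam was added after seeing the data.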

Additional observations from a re-analysis of the deposited data

How the results depend on the processing

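Of 130 values of single member genes under alternatives, 108 kept their sign, 22 turned it and none passed the threshold. With normexp and median centring, which set the median of all tested genes at 0.18, the means of Cdh5 (0.39), Egfl7 (0.69), Esam (0.32), Flt1 (0.43), Kdr (0.18), Pecam1 (0.30) and Tek (0.55) turned positive. With mean signals and median centring the median of all tested genes was 0.065. The means of Cdh5 (0.10), Egfl7 (0.41), Esam (0.057), Flt1 (0.14), Pecam1 (0.086) and Tek (0.31) turned positive there, with Esam below that median. With normexp and loess those of Egfl7 (0.24) and Tek (0.19) did. Averaging all tested probes of a gene turned Tek to 0.17. Without replicate 1 the mean of Egfl7 was 0.03, without replicate 2 those of Flt1, Pecam1 and Tek were 0.13, 0.042 and 0.10, and without replicate 3 those of Egfl7 and Tek were 0.19 and 0.12. Leaving out an array thus gave ranges of -0.30 to 0.19 for Egfl7, -0.48 to 0.13 for Flt1, -0.17 to 0.042 for Pecam1 and -0.24 to 0.12 for Tek, and of -0.64 to -0.063 for Cdh5, -0.41 to -0.038 for Kdr, -0.54 to -0.18 for Vwf and -0.41 to -0.11 for Esam. The cause was not tested.

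The median of the member genes was 0.31 with normexp and median centring and ran from -0.40 to -0.09 when an array was left out, and without Esam it was -0.26. Brighter in Cy5 on all arrays were 4 members with normexp and median centring, beside 42.6% of all tested genes there, and brighter in Cy3 was 1, beside 11%. Leaving out an array gave 3 to 8 members brighter in Cy3 on both others (8 without replicate 1), beside 21.5% to 29.1% of tested genes, and 0 to 2 that met the selection for consistency there in Cy3 (Eng and Vwf without replicate 1), beside 1.68% to 2.52%.

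Of 110 list medians under alternatives, 15 moved by more than the spread between arrays.

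Over all probes, limma called 2 in Cy5, and 1 with normexp and loess, 10 with mean signals and median centring, 0 with no signal minimum, 1 at a signal of at least 50 and 0 by the methods' t-test (1244 at an unadjusted p under 0.05). Leaving out an array gave 0 to 409 in Cy5 and 0 to 134 in Cy3, both highest without replicate 3. The selection for consistency took 120 probes in Cy5 and 151 in Cy3. It took 61 and 73 with normexp and loess, 9 in Cy3 with normexp and median centring and 70 in Cy3 with mean signals, and 573 to 1167 and 439 to 665 with an array left out. Each ratio already compares the pools of 1 array, so no further replicate block could be fitted, and a slide or scan block could not be fitted because all arrays shared both.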
